A study of Mus musculus with 17 samples.

Results

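A set of 10 genes of the histone H3 lysine 9 (H3K9) silencing machinery and of the MORC family were followed through 17 mouse libraries: Trim28, Setdb1, Ehmt1, Ehmt2, Suv39h1, Suv39h2, Mphosph8, Morc1, Morc2a and Morc2b. They were taken by gene name from the 23980 genes listed in each of 2 expression tables, and all 10 were found in both. Methylated H3K9 is a mark of compact, silent chromatin, and in the male germ line it acts beside PIWI-interacting RNA and DNA methylation on retrotransposons. TRIM28, also named KAP1, is the corepressor that KRAB zinc finger proteins bring to DNA, and it recruits the enzyme SETDB1, which trimethylates H3K9. EHMT2 (G9a) and EHMT1 (GLP) pair to make mono- and dimethylated H3K9, and SUV39H1 and SUV39H2 trimethylate H3K9 in pericentromeric chromatin. MPHOSPH8 is the subunit of the HUSH complex that binds methylated H3K9. MORC proteins are ATPases that compact chromatin: Morc1 is known for silencing retrotransposons in male germ cells, Morc2a for working with HUSH, and Morc2b, a mouse paralogue of Morc2a, for a need in meiotic prophase.

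Polyadenylated RNA came from C57BL6/J mice that were wild type (WT), Pld6 KO, Dnmt3L KO or, for newborn testes, DKO, which lacks both genes. Pld6 encodes a mitochondrial enzyme of PIWI-interacting RNA production, and Dnmt3l a cofactor of de novo DNA methylation. Leptotene/zygotene (L/Z) spermatocytes, cells early in meiotic prophase, had been sorted from animals 3 to 4 weeks old and gave 2 libraries per genotype (WT, Pld6 KO and Dnmt3L KO). Whole testes at postnatal day 0 (P0), whose only germ cells are prospermatogonia, gave 2 libraries of WT, 4 of Pld6 KO, 2 of Dnmt3L KO and 3 of DKO. The labels call the libraries biological replicates and name no animal or litter, so p-values measure the spread between these libraries.

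Total fragments ranged from 5194238 to 14578341 per L/Z library and from 9900346 to 23498968 per P0 library. No library went against its genotype label. Pld6 held 0 fragments in both L/Z Pld6 KO libraries and 344 and 352 in the L/Z WT pair. Dnmt3l held 0 in both L/Z Dnmt3L KO libraries, a weaker check, as the L/Z WT pair had only 19 and 11. At P0, Pld6 held 2 fragments or fewer in each Pld6 KO or DKO library, against 57 and 40 in WT. Dnmt3l held 3 or fewer in each P0 Dnmt3L KO or DKO library, against 53 and 72 in WT. In its germ cell markers, P0 Dnmt3L KO replicate 1 stood apart, as given below. All 8 markers of L/Z spermatocytes exceeded 3 fragments in every L/Z library, with a summed level of 1350 and 2496 CPM (fragments scaled to the size of the library) in the WT pair, 1716 and 2886 in the Pld6 KO pair and 5289 and 4788 in the Dnmt3L KO pair. All 8 markers of spermatogonia also exceeded 3 fragments in every L/Z library. They summed to 1868 and 1832 CPM in the WT pair and 1548 and 1622 CPM in the Pld6 KO pair. In the Dnmt3L KO pair they summed to 919 and 1568 CPM. The part of this balance of cells in the values below was not tested. Markers of Sertoli cells summed to between 35.9 and 189 CPM in L/Z libraries, against 1038 to 1968 CPM in whole P0 testes. The ribosomal RNA precursor Rn45s took 8.27% of fragments in L/Z WT replicate 1 and 8.06% in L/Z Pld6 KO replicate 1, and from 0.134 to 0.301% in the other 4 L/Z libraries. In P0 testes and in the sorted cells alike, fewer cells of a type and less RNA per cell cannot be told apart.

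The sequences around the transcription starts of Morc2a and Morc2b are shown because only these members passed the test below, and in opposite directions. Each window runs from 250 bases before to 50 bases after an annotated start and comes from RefSeq (GRCm38.p6), with CpG dinucleotides, the sites of DNA methylation in mammals, in capitals. RefSeq windows were found for 9 of the 10 genes, Morc1 being the gene without one, and numbered 13 in all. The first window of Morc2a lies at chr11:3649187-3649486 on the plus strand, and the windows of Morc2b lie at chr17:33148700-33148999 and chr17:33139634-33139933 on the minus strand.
Morc2a, first window: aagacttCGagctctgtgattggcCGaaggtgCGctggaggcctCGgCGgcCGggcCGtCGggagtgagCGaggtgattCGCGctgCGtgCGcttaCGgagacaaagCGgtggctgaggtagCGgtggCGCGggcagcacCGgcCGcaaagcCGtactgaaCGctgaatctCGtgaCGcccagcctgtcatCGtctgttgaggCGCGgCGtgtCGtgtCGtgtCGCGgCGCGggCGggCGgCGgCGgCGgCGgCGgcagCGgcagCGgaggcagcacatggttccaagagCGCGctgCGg
Morc2b, first window: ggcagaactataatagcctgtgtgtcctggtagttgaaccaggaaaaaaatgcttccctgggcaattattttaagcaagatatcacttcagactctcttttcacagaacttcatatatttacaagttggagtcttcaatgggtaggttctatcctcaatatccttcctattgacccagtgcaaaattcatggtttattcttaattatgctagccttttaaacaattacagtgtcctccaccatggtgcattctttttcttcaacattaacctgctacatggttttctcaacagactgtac
Morc2b, second window: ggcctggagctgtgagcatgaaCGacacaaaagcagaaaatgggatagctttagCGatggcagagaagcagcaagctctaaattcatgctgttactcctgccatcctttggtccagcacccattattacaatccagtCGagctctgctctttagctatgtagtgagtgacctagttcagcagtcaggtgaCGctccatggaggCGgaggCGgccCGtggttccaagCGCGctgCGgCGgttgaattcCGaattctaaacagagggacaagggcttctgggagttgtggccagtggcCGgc

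Morc2a had 46 CpG dinucleotides in its first window, more than 98.3% of the 32851 mouse windows in the table, whose median was 7. Morc2b had 0 CpG dinucleotides in its first window, as did 5.43% of all windows, and 13 in its second. The longest run shared by the first Morc2a window and the second Morc2b window was 12 bases, AGCGCGCTGCGG. A second Morc2a start, at chr11:3658422-3658721, also held 0 CpG. The other 7 genes with a window had from 15 (Setdb1, and the first window of Suv39h1) to 40 CpG (the second window of Ehmt2). The GC box GGGCGG, searched on both strands, was in 10 of the 13 windows of these genes and in 35.7% of all windows, and the 3 windows without it were the second of Morc2a and both of Morc2b. The letters TCCCGC, which can overlap a GC box, were in 4 of 13 windows and 19.98% of all windows. The E-box CACGTG was in 2, both of Ehmt2, and in 7.15% of all. These matches describe the windows and are not evidence of binding.

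Levels in WT were compared between genes in FPKM, which scales fragments to the length of the transcript and the size of the library. In L/Z spermatocytes, Trim28 had the highest level of the 10 genes, at 188 and 265 FPKM, followed by Ehmt2 at 130 and 125 FPKM. Mphosph8 (66.4 and 103 FPKM) and Setdb1 (65.3 and 84.1 FPKM) overlapped. Below them, without overlap between neighbours, came Morc2a (47.9 and 64.8 FPKM), Suv39h1 (39.6 and 47.5 FPKM), Ehmt1 (34.6 and 33.0 FPKM), Suv39h2 (24.2 and 26.96 FPKM), Morc1 (20.6 and 12.5 FPKM) and Morc2b (1.20 and 2.00 FPKM). In P0 WT testes Trim28 was again highest (118 and 96.7 FPKM) and Ehmt2 next (51.9 and 46.7 FPKM), ahead of Setdb1 (34.8 and 33.8 FPKM). Ehmt1, Suv39h1, Mphosph8 and Morc2a lay within 21.4 to 26.1 FPKM and overlapped. Morc1 (7.52 and 8.39 FPKM) and Suv39h2 (6.06 and 5.21 FPKM) were lower, and Morc2b had 0 fragments in both. Cuffdiff scaled the tables of the 2 stages separately, so a level at L/Z was not set against a level at P0. Within a library, the FPKM of Suv39h1 was between 1.64 and 2.58 times that of Suv39h2 in the 6 L/Z libraries and between 3.01 and 5.85 times in the 11 P0 libraries.

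**Figure D1:**
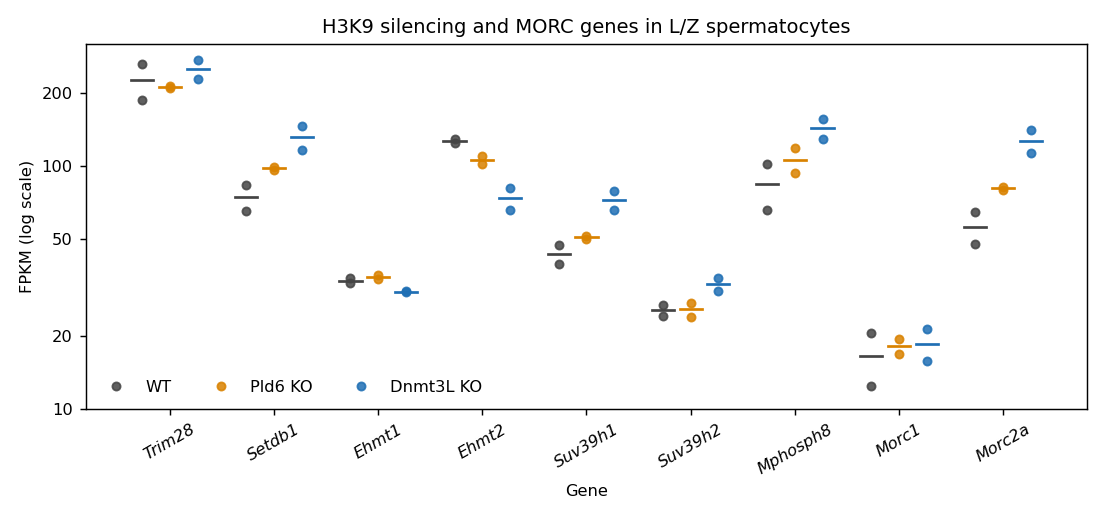
FPKM (log scale) of 9 genes in each L/Z library, with a point per library, 2 per genotype, and a bar at the group mean. Morc2a ran from 47.9 FPKM in the lowest WT library to 141 FPKM in the highest Dnmt3L KO library, and Ehmt2 from 130 FPKM in WT down to 66.1 FPKM in Dnmt3L KO.

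Of the 10 genes, Morc2a and Morc2b passed the test against WT in L/Z spermatocytes. Morc2b was lower in both mutants and Morc2a was higher in Dnmt3L KO, while no H3K9 methyltransferase, Trim28 or Mphosph8 passed the test. Morc2b entered the test through the WT pair alone, so its direction was fixed by the filter on low counts. Its calls are therefore given as a description. A gene was called at an adjusted p (false discovery rate, FDR, edgeR quasi-likelihood test over all genes tested) under 0.05 with a change over 2-fold. In Pld6 KO, 1 of the 10 genes was called (Morc2b), where 0.225% of the 14662 genes tested were called. In Dnmt3L KO, 2 of the 10 were called (Morc2a and Morc2b), where 5.47% of all genes tested were called. The median log2 fold change of the 10 genes was 0.10 for Pld6 KO and 0.27 for Dnmt3L KO, beside 0.004 and -0.04 over all genes tested. Where genotypes are said below not to overlap, this is a description, as the share of all genes that do not overlap was not counted.

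Trim28, the corepressor, had 188 and 265 FPKM in the WT pair, 211 and 213 in the Pld6 KO pair and 274 and 230 in the Dnmt3L KO pair. The ranges of the genotypes overlapped, and the log2 fold changes were -0.09 ± 0.25 (SE) in Pld6 KO against 0.15 in Dnmt3L KO. At 59.6% GC its transcript was, with Ehmt2 (60.8%), the most GC-rich of the 10, and after correction for transcript GC and length Trim28 in Dnmt3L KO was at 0.60 ± 0.25 (FDR = 0.194, edgeR).

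Setdb1, the methyltransferase that TRIM28 recruits, had 65.3 and 84.1 FPKM in the WT pair, 99.8 and 97.1 in the Pld6 KO pair and 146 and 117 in the Dnmt3L KO pair. Each mutant library lay above both WT libraries, and each Dnmt3L KO library above both Pld6 KO libraries. The log2 fold change was 0.40 ± 0.23 in Pld6 KO (FDR = 0.610, edgeR). In Dnmt3L KO it was 0.81 ± 0.23, or 1.75-fold, which missed both the fold and the FDR threshold (FDR = 0.0571, edgeR). Over 15 alternative settings the Dnmt3L KO value of Setdb1 ran from 0.64 to 1.01, the highest being that without L/Z WT replicate 2.

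The pair that makes mono- and dimethylated H3K9 differed in its values. Ehmt2 had 130 and 125 FPKM in the WT pair, 111 and 103 in the Pld6 KO pair and 66.1 and 81.6 in the Dnmt3L KO pair. Its 3 genotypes did not overlap, with WT highest and Dnmt3L KO lowest. The log2 fold change of Ehmt2 was -0.26 ± 0.22 in Pld6 KO but -0.79 ± 0.22 in Dnmt3L KO (FDR = 0.0537, edgeR). After the correction for GC and length it was -0.28 in Dnmt3L KO (FDR = 0.492), a change of the value by more than 1.5 times. Ehmt1 had 34.6 and 33.0 FPKM in the WT pair, 34.3 and 35.8 in the Pld6 KO pair and 30.3 and 30.6 in the Dnmt3L KO pair, with log2 fold changes of 0.06 and -0.16.

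Within a library, Setdb1 was at 0.503 and 0.671 times the FPKM of Ehmt2 in the WT pair, 0.902 and 0.946 times in the Pld6 KO pair and 2.22 and 1.43 times in the Dnmt3L KO pair. In FPKM the order of these methyltransferases was thus reversed in Dnmt3L KO against WT. This ratio was chosen after the values were seen, was not corrected for transcript GC and was not tested. Ehmt2 (60.8% GC) and Setdb1 (49.4%) differ in GC, and the correction for GC and length moved the Ehmt2 log2 fold change from -0.79 to -0.28. In the 11 P0 libraries the same ratio stayed between 0.525 and 0.916.

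Suv39h1, one of the enzymes that trimethylate pericentromeric H3K9, had 39.6 and 47.5 FPKM in the WT pair, 51.8 and 50.4 in the Pld6 KO pair and 79.5 and 66.3 in the Dnmt3L KO pair. The genotypes did not overlap. Its log2 fold change was 0.23 ± 0.21 in Pld6 KO, with 0.74 ± 0.21 in Dnmt3L KO (FDR = 0.0539, edgeR). Suv39h2, its paralogue with high expression in testis, had 24.2 and 26.96 FPKM in the WT pair, 24.1 and 27.5 in the Pld6 KO pair and 30.8 and 34.6 in the Dnmt3L KO pair, with log2 fold changes of 0.02 and 0.36 ± 0.20.

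Mphosph8, the chromodomain subunit of HUSH, had 66.4 and 103 FPKM in the WT pair, 93.9 and 119 in the Pld6 KO pair and 130 and 157 in the Dnmt3L KO pair. WT and Pld6 KO overlapped, and both Dnmt3L KO libraries lay above them. The log2 fold change was 0.34 ± 0.26 in Pld6 KO, with 0.77 ± 0.26 in Dnmt3L KO (FDR = 0.0973, edgeR). It was called without L/Z WT replicate 2 (1.12, FDR = 0.0433) and was at 0.37 after the correction for GC and length (FDR = 0.392).

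Morc1 had 20.6 and 12.5 FPKM in the WT pair, 19.4 and 16.95 in the Pld6 KO pair and 15.8 and 21.5 in the Dnmt3L KO pair. The ranges overlapped and the log2 fold changes were 0.14 and 0.18.

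Morc2a, the partner of HUSH, had 47.9 and 64.8 FPKM in the WT pair, 79.8 and 82.5 in the Pld6 KO pair and 141 and 114 in the Dnmt3L KO pair. Every library of a mutant was above both of WT, and the genotypes did not overlap. Morc2a rose 2.28-fold in Dnmt3L KO, a log2 fold change of 1.19 ± 0.23 (SE, n = 2 against 2, FDR = 0.0198, edgeR). In Pld6 KO it was at 0.57 ± 0.23 and did not pass (FDR = 0.497). Over 15 alternative settings the Dnmt3L KO value of Morc2a stayed between 1.01 and 1.40, and after the correction for GC and length it was 1.18 (FDR = 0.0417). It missed the threshold without L/Z WT replicate 1 (1.01, FDR = 0.106) and without L/Z Dnmt3L KO replicate 1 (1.05, FDR = 0.143). Morc2a and Morc2b are related in sequence, and Cuffdiff shared fragments that fit more than 1 transcript by likelihood, so a small part of either value could belong to the other. The summed level of the L/Z spermatocyte markers, given above, was likewise higher in both Dnmt3L KO libraries than in the other 4, and its part in the Morc2a value was not tested.

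Morc2b had 50 and 83 fragments in the WT pair (1.20 and 2.00 FPKM), 1 and 0 in the Pld6 KO pair and 0 and 2 in the Dnmt3L KO pair. Both WT libraries stood far above the 4 mutant libraries, each of which held 3 fragments or fewer. Morc2b passed the filter on low counts through the WT pair alone, so its direction was fixed by the filter and the FDRs below are descriptive. Against 3 fragments per library, Morc2b fell at least 16.8-fold in Pld6 KO (FDR = 0.0275, edgeR) and at least 13.9-fold in Dnmt3L KO (FDR = 0.0113). The call in Pld6 KO was lost without L/Z WT replicate 2 (FDR = 0.189), Pld6 KO replicate 2 (0.0620), Dnmt3L KO replicate 1 (0.136) or Dnmt3L KO replicate 2 (0.111), and the call in Dnmt3L KO without Dnmt3L KO replicate 1 (FDR = 0.130). The Pld6 KO call of Morc2b was also lost in a fit of the compared groups only (FDR = 0.131, edgeR) and with limma on log2(FPKM + 1) (FDR = 0.0757).

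Markers of later germ cells moved with Morc2b. The 12 markers of pachytene and later cells summed to 56.7 and 76.8 CPM in the WT pair, 23.8 and 41.4 CPM in the Pld6 KO pair and 27.4 and 20.3 CPM in the Dnmt3L KO pair, so that they were lower in all 4 mutant libraries. From 4 to 7 of the 12 exceeded 3 fragments in an L/Z library, and Prm2, which encodes a protamine of late spermatids, was at 0 in all 6. Their part in the change of Morc2b was not tested.

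**Figure D2:**
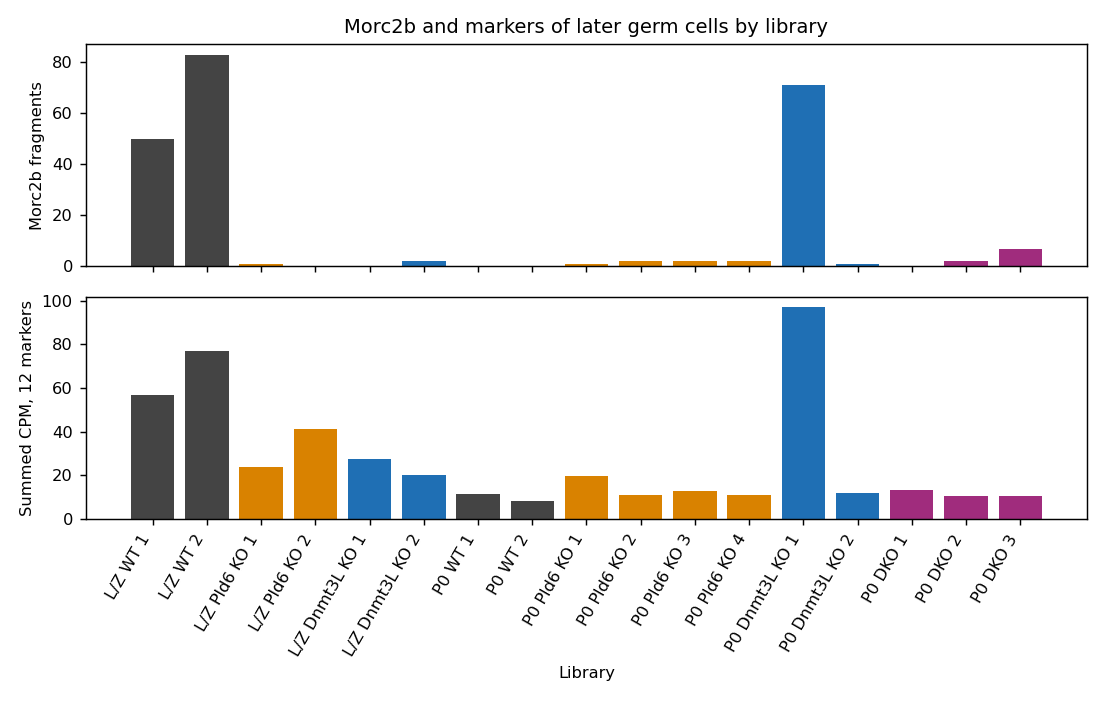
Fragments of Morc2b (upper panel) and summed CPM of 12 markers of pachytene and later germ cells (lower panel) in each of the 17 libraries, 1 bar per library. Morc2b reached 50 and 83 fragments in the L/Z WT pair and 71 in P0 Dnmt3L KO replicate 1, and the same 3 libraries had the highest marker sums (56.7, 76.8 and 96.9 CPM).

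Between the mutants at L/Z, none of the 10 genes was called by edgeR, DESeq2 or limma in Dnmt3L KO against Pld6 KO, where edgeR called 0.0477% of all genes tested. At an unadjusted p under 0.05, where edgeR placed 17.5% of all genes tested, were 3 of the 10: Morc2a (0.62 ± 0.23 on the log2 scale), Suv39h1 (0.50 ± 0.21) and Ehmt2 (-0.53 ± 0.22). The lowest FDR of these genes was 0.214, that of Morc2a. A larger value in Dnmt3L KO than in Pld6 KO was therefore not shown for any of them.

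At P0, 9 of the 10 genes were tested, Morc2b having too few fragments for the edgeR filter, and none was called in any of the 5 comparisons. These whole testes mix cell types: Sertoli markers summed to 1038 to 1968 CPM and prospermatogonia markers to 116 to 471 CPM. A change in the germ cells alone could go unseen and was not tested. In Pld6 KO against WT, edgeR called 0.00629% of the 15901 genes tested and 0 of the 9, 0 of which had an unadjusted p under 0.05, and DESeq2 and limma also called 0. In Dnmt3L KO, 0% of all genes and 0 of the 9 were called by edgeR, 0 of the 9 at an unadjusted p under 0.05 and 0 by limma. DESeq2, which kept Morc2b, called that gene, where it called 78 of the 16900 genes it tested. In DKO against WT, edgeR called 0.0126% of all genes and none of the 9, with 1 (Suv39h1) at an unadjusted p under 0.05 and 0 called by DESeq2 or limma. DKO against Pld6 KO gave 0% of all genes and 0 of the 9 by edgeR, 0 at an unadjusted p under 0.05, and 0 by DESeq2 and limma. DKO against Dnmt3L KO gave 0.0755% of all genes and 0 of the 9 by edgeR, 0 at an unadjusted p under 0.05 and 0 by limma. There DESeq2 called 1 (Morc2b), where it called 285 of the 16495 genes it tested.

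Trim28 had 118 and 96.7 FPKM in the WT testes, 121, 114, 115 and 88.5 in the Pld6 KO testes, 81.8 and 80.7 in the Dnmt3L KO testes and 117, 86.8 and 95.3 in the DKO testes. Its lowest values were those of Dnmt3L KO, with a log2 fold change of -0.38 ± 0.21 (FDR = 0.448, edgeR). Setdb1 had 34.8 and 33.8 FPKM in the WT testes, from 27.5 to 36.8 in the Pld6 KO testes, 27.1 and 29.1 in the Dnmt3L KO testes and from 25.2 to 32.7 in the DKO testes. Ehmt1 stayed between 19.8 and 26.0 FPKM and Ehmt2 between 37.1 and 58.5 FPKM over the 11 libraries, with overlap between Ehmt2 in WT and in Pld6 KO.

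Suv39h1 had 24.4 and 26.0 FPKM in the WT testes, 22.4, 20.6, 26.0 and 20.8 in the Pld6 KO testes, 21.5 and 19.7 in the Dnmt3L KO testes and 20.9, 17.7 and 17.5 in the DKO testes. All DKO libraries lay below both WT libraries, but the log2 fold change of -0.41 ± 0.16 did not pass (FDR = 0.506, edgeR). Suv39h2 ranged from 3.33 to 6.06 FPKM and Morc2a from 18.5 to 26.1 FPKM over the 11 libraries. Mphosph8 had 24.7 and 24.8 FPKM in the WT testes and 33.9 and 29.7 in the Dnmt3L KO testes, a log2 fold change of 0.39 ± 0.21 (FDR = 0.436).

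**Figure D3:**
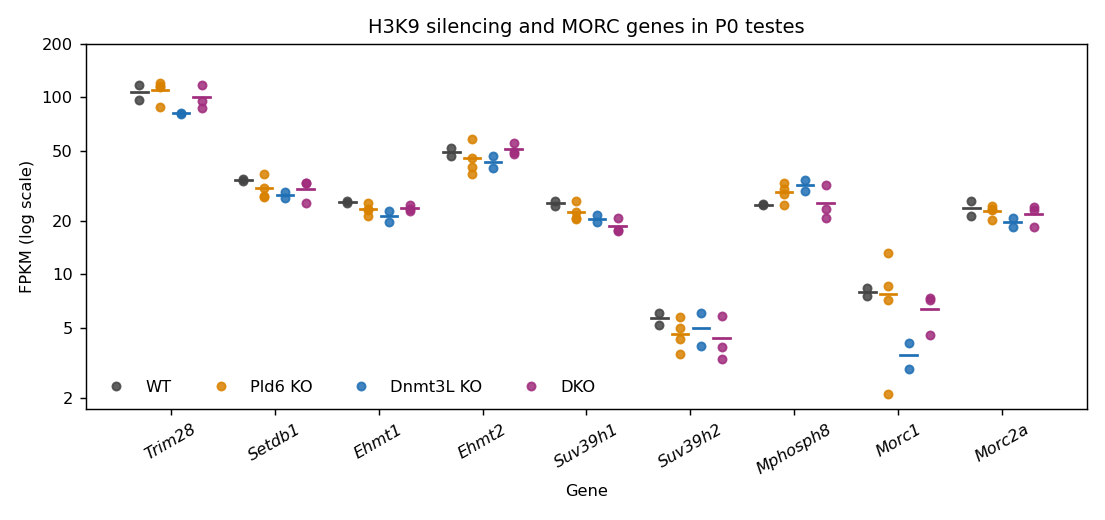
FPKM (log scale) of 9 genes in each P0 testis library, a point per library and a bar at the group mean, 11 libraries in all. Morc1 has the widest spread and runs from 2.12 to 13.2 FPKM within Pld6 KO.

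Morc1 varied most at P0. It had 7.52 and 8.39 FPKM in the WT testes, 2.12, 13.2, 7.17 and 8.58 in the Pld6 KO testes, 4.10 and 2.92 in the Dnmt3L KO testes and 7.31, 4.52 and 7.18 in the DKO testes. Pld6 KO alone spanned the range of all other libraries, and both Dnmt3L KO libraries lay below both of WT. The log2 fold change in Dnmt3L KO was -1.15 ± 0.55 and did not pass (FDR = 0.394, edgeR). In DKO it was -0.31 ± 0.48 against WT and 0.84 ± 0.51 against Dnmt3L KO.

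Germ cell markers differed between the same P0 libraries. The 7 prospermatogonia markers, which include Ddx4, Dazl and Mael, summed to 324 and 259 CPM in the WT testes, 116, 453, 359 and 471 CPM in the Pld6 KO testes, 444 and 385 CPM in the Dnmt3L KO testes and 446, 208 and 417 CPM in the DKO testes. Pld6 KO replicate 1 was lowest for both Morc1 and these markers. Relative to the marker sum of its own library, Morc1 was at 6.84 and 9.42% in the WT testes, 5.36, 8.57, 5.84 and 5.34% in the Pld6 KO testes, 2.76 and 2.25% in the Dnmt3L KO testes and 4.88, 6.44 and 5.10% in the DKO testes. The lowest shares were those of the Dnmt3L KO libraries, whose marker sums were above both of WT. This share was chosen after the values were seen and was not tested. The 7 markers are not particular to prospermatogonia, as they summed to between 2628 and 4470 CPM in the L/Z libraries. Dnmt3L KO replicate 1 also had the highest sum of L/Z spermatocyte markers at P0, 180 CPM against 42.1 to 89.1 CPM in the other 10 libraries, and of later germ cell markers, at 96.9 CPM. The part of such cells in the share was not tested.

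**Figure D4:**
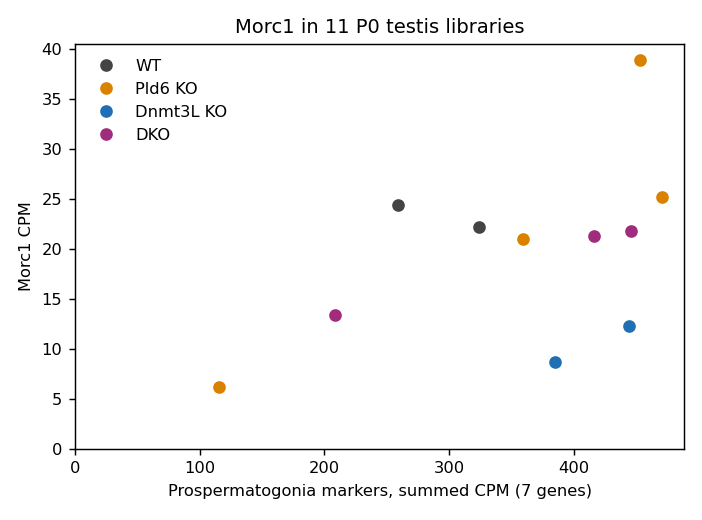
CPM of Morc1 against the summed CPM of 7 prospermatogonia markers in the 11 P0 testis libraries, a point per library coloured by genotype. The Dnmt3L KO libraries (12.3 and 8.68 CPM of Morc1 at 444 and 385 CPM of markers) lie below all other libraries with a marker sum over 250 CPM. Under that sum lie Pld6 KO replicate 1, with the lowest Morc1 (6.19 CPM at 116 CPM of markers), and DKO replicate 2 (13.4 CPM at 208 CPM).

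Morc2b at P0 had 0 fragments in both WT libraries, 1, 2, 2 and 2 in the Pld6 KO testes, 71 and 1 in the Dnmt3L KO testes and 0, 2 and 7 in the DKO testes. Its signal in Dnmt3L KO rested on replicate 1 alone. That library also had the highest sum of the markers of pachytene and later germ cells at P0, 96.9 CPM against 11.8 CPM in replicate 2 and between 8.31 and 19.6 CPM in the other 9 libraries. The part of such cells in the Morc2b signal was not tested.

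Whether a mutation acted differently at the 2 stages was tested in a single model of the 14 WT, Pld6 KO and Dnmt3L KO libraries, without a fold threshold. Stage cannot be told apart from tissue and read type in this design. For Pld6 KO, 0 of the 10 genes were called by edgeR, where 0.0121% of all genes were called. At an unadjusted p under 0.05 were 2 (Morc2a and Morc2b), beside 9.52% of all genes. DESeq2 called 1 (Morc2b), where it called 51 of the 15521 genes it tested. For Dnmt3L KO, 2 of the 10 were called (Morc2a and Morc2b), where 0.665% of all 16547 genes tested were called.

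The Dnmt3L KO effect on Morc2a was larger at L/Z than at P0 by 1.40 ± 0.27 on the log2 scale (FDR = 0.0388, edgeR). Against WT of its own stage Morc2a was at 1.19 ± 0.23 at L/Z and at -0.24 ± 0.18 at P0. Over 18 alternatives the difference stayed between 1.25 and 1.54. The call was lost on leaving out any of 9 of the 14 libraries, namely L/Z WT replicate 1 (FDR = 0.102) or 2 (0.0668), L/Z Pld6 KO replicate 1 (0.0511) or 2 (0.0548), L/Z Dnmt3L KO replicate 1 (0.132), P0 WT replicate 1 (0.179) or 2 (0.104), P0 Pld6 KO replicate 2 (0.0636) and P0 Dnmt3L KO replicate 1 (0.199).

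Morc2b was lower than WT at L/Z and, by 1 library, higher at P0, and its stage difference was called (FDR = 0.0356, edgeR). Of the 14 libraries, only the L/Z WT pair (50 and 83) and P0 Dnmt3L KO replicate 1 (71) held more than 2 fragments. Morc2b passed the filter of this model through these libraries alone, so no stage difference is drawn from the call. No size is given for the difference, since a fitted fold of groups near 0 fragments depends on the prior count. Without P0 Dnmt3L KO replicate 1 it was not called (FDR = 0.259), nor without L/Z WT replicate 2 (0.0644), L/Z Dnmt3L KO replicate 1 (0.125), P0 WT replicate 1 (0.154) or 2 (0.142), or P0 Pld6 KO replicate 2 (0.0561). Setdb1 (1.04 ± 0.28, FDR = 0.0910) and Suv39h1 (0.96 ± 0.25, FDR = 0.0837) missed the threshold in this test.

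**Figure D5:**
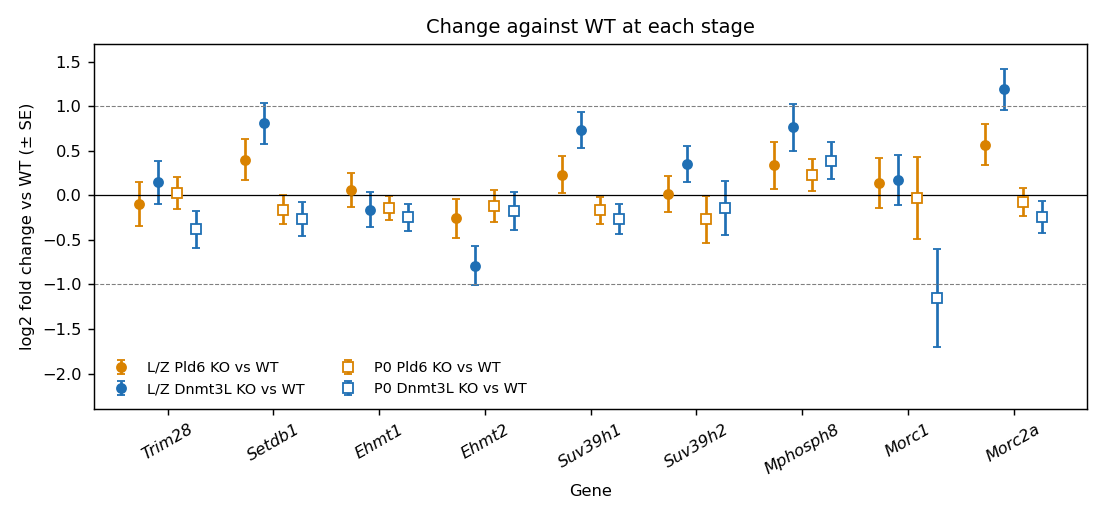
Log2 fold change against WT of the same stage with its SE for 9 genes, L/Z as filled circles and P0 as open squares, Pld6 KO in orange and Dnmt3L KO in blue, with dashed lines at a 2-fold change. Morc2a at L/Z in Dnmt3L KO (1.19) lies above the upper line, whereas at P0 it is at -0.24, and Morc1 at P0 in Dnmt3L KO (-1.15) has the widest error bar.

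The wider H3K9 pathway was described by 39 further genes, which encode partners, readers, chromatin assembly factors and H3K9 demethylases, and all were tested at both stages. In L/Z Pld6 KO 0 of the 39 were called by edgeR, DESeq2 or limma, 10 had an unadjusted p under 0.05 and a higher value, and 0 a lower one, beside 0.225% of all genes called and 9.17% at an unadjusted p under 0.05 in either direction. In L/Z Dnmt3L KO 3 were called, all higher, with 16 at an unadjusted p under 0.05, again all higher, beside 5.47% of all genes called and 26.7% at an unadjusted p under 0.05 in either direction. DESeq2 called 4 of the 39 (985 of 12573 genes tested), limma on log2(FPKM + 1) 2 (530 of 14662), and edgeR after the correction for GC and length 0 (285 of 14662). A factor added to the model for the L/Z libraries over 1% Rn45s (WT replicate 1 and Pld6 KO replicate 1) left 1. Leaving out a single library could also change the number called. The median log2 fold change of the 39 genes was 0.32 for Pld6 KO and 0.29 for Dnmt3L KO, beside 0.004 and -0.04 over all genes. The largest rise among the called genes was in Fam208a (TASOR), the scaffold of HUSH, with 11.9 and 13.0 FPKM in the WT pair, 20.4 and 25.3 in the Pld6 KO pair and 35.2 and 30.3 in the Dnmt3L KO pair. Its log2 fold change was 1.38 ± 0.21 in Dnmt3L KO (FDR = 0.00871, edgeR) and 0.87 ± 0.21 in Pld6 KO, which did not pass (FDR = 0.209).

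Atf7ip2, a relative of the SETDB1 cofactor ATF7IP, had 34.2 and 53.1 FPKM in the WT pair, 53.8 and 73.7 in the Pld6 KO pair and 90.6 and 94.3 in the Dnmt3L KO pair, a rise of 1.10 ± 0.23 on the log2 scale in Dnmt3L KO (FDR = 0.0234, edgeR). Uhrf2, a chromatin reader related to UHRF1, had 13.98 and 15.5 FPKM in the WT pair, 21.9 and 27.4 in the Pld6 KO pair and 35.0 and 25.2 in the Dnmt3L KO pair, a rise of 1.02 ± 0.23 (FDR = 0.0300). For Fam208a, Atf7ip2 and Uhrf2, which were named because they were called, each mutant library lay above both WT libraries. This describes the same values and adds no support to the calls. By group, genes higher in Dnmt3L KO at an unadjusted p under 0.05 were counted, beside 26.7% of all genes in either direction. They were 5 of 7 SETDB1 and KRAB partners, 2 of 3 HUSH genes and 6 of 9 H3K9 demethylases. The counts were 2 of 10 for chromatin assembly and deacetylase genes and 1 of 4 for HP1 proteins and readers. The G9a/GLP partners, the other MORC genes and the SUMO genes had 0 of 2 each. All these counts came from the fit without the correction for GC and length. The most abundant of the 39 in WT at both stages were Sumo2, a SUMO modifier (441 and 611 FPKM at L/Z), and Cbx3, which encodes HP1 gamma (161 and 176 FPKM at L/Z), and neither was called.

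In P0 testes, which mix cell types, edgeR, DESeq2 and limma called none of the 39 in Pld6 KO, Dnmt3L KO or DKO against WT. At an unadjusted p under 0.05 were 0, 5 and 2, all lower, beside 5.06%, 12.9% and 7.97% of all genes in either direction. The 3 with the smallest p were Chaf1b, a subunit of the chromatin assembly factor CAF-1, at -0.78 ± 0.25 in DKO (FDR = 0.442), Uhrf1, which recruits DNMT1 to replicated DNA, at -0.85 ± 0.30 in Dnmt3L KO (FDR = 0.314), and Wiz, a zinc finger partner of G9a and GLP, at -0.57 ± 0.20 in Dnmt3L KO (FDR = 0.320). Uhrf1 had 49.3 FPKM in each WT library and 29.1 and 24.7 FPKM in the Dnmt3L KO testes, with Pld6 KO between 30.1 and 54.8 FPKM.

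The genes most like the called members were sought among 12673 genes by Pearson's r of log2 CPM over the 17 libraries, with each stage centred on its own mean. For Morc2b they were 1700006A11Rik (r = 0.962), Mroh4 (0.953), Fabp9 (0.877), Zmynd10 (0.860) and 1700008K24Rik (0.854). Only the L/Z WT pair and P0 Dnmt3L KO replicate 1 held more than 7 fragments of Morc2b, so its r values rest on these libraries. For Morc2a they were Dip2c (r = 0.962), Stim2 (0.958), R3hdm1 (0.956), Zcchc6 (0.953) and Nipbl (0.951). The points share their genotypes and their libraries' depth and composition, so these values describe likeness only.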

How the data were processed

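Stranded poly(A) RNA was sequenced as single 50-bp reads (L/Z) or pairs of 100-bp reads (P0). The authors aligned with TopHat2 to mm10 and quantified RefSeq genes with Cuffdiff (versions not given in the sources used here). The deposited tables hold estimated counts of raw fragments per gene and library and, by the authors' scaling, FPKM. Replicates are numbered from 0 in the tables and from 1 in the labels, and were matched in order. Genes with a failed status (6 at L/Z, 2 at P0, no member) were left out. Estimated counts were rounded and tested with edgeR 4.0.16 in R 4.3.3 (filterByExpr, TMM, quasi-likelihood tests, all groups of a stage in 1 fit). P-values were adjusted by Benjamini-Hochberg over all genes tested, with calls at FDR under 0.05 and over 2-fold. SE is that of the log2 fold change. CPM uses TMM-scaled library sizes. Bounds use 3 counts per library. The test was checked on simulated data. Named genes were all members, pathway genes called against WT or, per stage, the 2 most abundant and the 3 with the smallest p, and the 5 genes most like each called member. Members and lists were chosen with earlier results of these data known. Precision is limited by 2 libraries in most groups, and counting intervals would cover counting error only. Alternatives used DESeq2 1.42.0 and limma 3.58.1 on log2(FPKM + 1) or log2(FPKM + 0.1), among other settings. Retrotransposons and DNA methylation were not analysed here.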

Additional observations from a re-analysis of the deposited data

Results flagged for a closer look

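By a test of the difference itself, the effect of Dnmt3L KO differed between L/Z spermatocytes and P0 testes for Morc2a (FDR = 0.0388, edgeR). That call was lost on leaving out any of several single libraries, as given above. Stage cannot be told apart from tissue and read type in this test. Morc2b was called as well (FDR = 0.0356, edgeR). It passed the filter of that test only through the L/Z WT pair and P0 Dnmt3L KO replicate 1, so no stage difference is drawn from its call. The Morc2a value in P0 Dnmt3L KO was at -0.24 on the log2 scale and that at L/Z at 1.19. At P0, Morc2b had 71 fragments in Dnmt3L KO replicate 1, where the filter on low counts left the gene out of the main test and both WT libraries had 0. Of the groups, P0 Pld6 KO alone had 4 libraries or more and could be examined for a library apart from the others. None was found for any of the 10 genes, where chance would mark about 1 in 20.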

How the results depend on the processing

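No called gene changed direction. Values that did not pass the test crossed 0 over the alternatives for several genes, at L/Z in Dnmt3L KO from -0.08 to 0.60 for Trim28, -0.02 to 0.44 for Suv39h2 and -0.13 to 0.59 for Morc1, and in Pld6 KO from -0.32 to 0.18 for Trim28. Of the 10 comparisons, the number of these genes called was 1 in L/Z Pld6 KO and became 0 in a fit of the compared groups only and with limma on log2(FPKM + 1), Morc2b being lost. DESeq2 called 1 gene (Morc2b) in P0 Dnmt3L KO against WT, in P0 DKO against Dnmt3L KO and for the stage difference of Pld6 KO, each 0 in edgeR. For the stage difference of Dnmt3L KO it called 4 (Setdb1, Suv39h1, Morc2a, Morc2b), 2 in edgeR. Over all genes DESeq2 called 78 of 16900, 285 of 16495, 51 of 15521 and 706 of 15935 in these 4 comparisons. In edgeR the counts were 0, 12, 2 and 110. For Morc2b in L/Z Dnmt3L KO DESeq2 gave no adjusted p. Leaving out each library gave 0 to 1 genes in L/Z Pld6 KO, 0 to 4 in L/Z Dnmt3L KO, 0 to 1 in P0 Dnmt3L KO and in P0 DKO against Dnmt3L KO (both Morc2b, without P0 Dnmt3L KO replicate 2), and 0 to 2 for the stage difference of Dnmt3L KO. A lone library in such a fit is assumed to vary like the other groups. The causes were not tested.

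With the replicate number as a block (replicate block), 0 genes were called in L/Z Pld6 KO and 0 for the stage difference of Dnmt3L KO, and the other 8 comparisons kept their counts. The labels do not say that a number marks a shared animal or batch. Deviations from the group means correlated between same-numbered libraries at 0.48 for L/Z WT and Pld6 KO, at -0.14 and -0.13 for Dnmt3L KO with these, and from -0.33 to 0.19 at P0.

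Over all genes, the count in L/Z Pld6 KO was 33 in edgeR, 74 without the filter and 90 with DESeq2. It was 1 with the compared groups only and 8 with limma on log2(FPKM + 1). With a model factor for the libraries rich in 45S rRNA it was 101, and it also varied without 1 library. In L/Z Dnmt3L KO it was 802, 530 with limma on log2(FPKM + 1), 285 with the GC and length offset, and 1 to 1139 without 1 library. Dnmt3L KO against Pld6 KO gave 7, from 3 (3 higher and 0 lower, DESeq2 size factors) to 352 (DESeq2), and 0 to 215 without 1 library. With the 45S factor this was 18 higher and 7 lower, against 6 and 1, and without L/Z Pld6 KO replicate 2 it was 45 higher and 92 lower. P0 DKO against Dnmt3L KO, at 8 higher and 4 lower, gave 14 higher and 107 lower without P0 Dnmt3L KO replicate 2. At P0 the counts were 1, 0, 2, 0 and 12 in edgeR and 14, 78, 63, 5 and 285 in DESeq2 (Pld6 KO, Dnmt3L KO and DKO against WT, then DKO against Pld6 KO and Dnmt3L KO), with 0 to 121 without 1 library. The stage differences gave 2 and 110 in edgeR, 51 and 706 in DESeq2 and 1 to 306 without 1 library. Other counts more than 1.5 times from those of edgeR were, at P0, 4, 2, 102 and 109 with the compared groups only (Pld6 KO, Dnmt3L KO and DKO against WT, DKO against Dnmt3L KO), 4, 8 and 91 without the filter (Pld6 KO and DKO against WT, DKO against Dnmt3L KO), 0 to 12 with the replicate block and 1 to 7 with limma, and, for the stage differences, 10 without the filter (Pld6 KO) and 28 with the block (Dnmt3L KO).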
